A study of Mus musculus with 6 samples.

Results

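The 10 genes described here are the heavy chains H2-K1, H2-D1, H2-T22, H2-T23 and H2-T24 of major histocompatibility complex (MHC) class I, their shared light chain B2m, the peptide transporter genes Tap1 and Tap2, and the class II chaperone genes H2-DMa and H2-DMb2. They were taken by gene name from a table of 29659 genes, and all 10 were found. H2-T22, H2-T23, H2-T24 and H2-DMb2 were picked because they moved in opposite directions between the groups compared below, so their differences are given as a description and support nothing. Of the 10 genes, 9 lie on chromosome 17 in the mouse MHC, called H2, and B2m lies on chromosome 2.

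RNA was sequenced from the lateral ganglionic eminence (LGE), the embryonic forebrain region that gives rise to striatal projection neurons, of C57BL/6 mice at embryonic day 16.5. Zfhx3-CKO mice (3 libraries) had the genotype Dlx5/6-Cre; Zfhx3F/F, in which Cre recombinase deletes floxed copies of the transcription factor gene Zfhx3, and control mice (3 libraries) had Dlx5/6-Cre alone. All 6 libraries thus carried the Cre transgene, which acts in Dlx5/6-expressing cells of the ganglionic eminences and not in every cell of the dissected tissue. The origin of the floxed allele and the number of animals per library are not given in the sources used here, so the p-values reflect no more than how far these libraries differ, which may be technical. The libraries held 18960574 to 20311799 counts in the Zfhx3-CKO group and 15938590 to 16753355 in the control group.

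Zfhx3 itself averaged 95.2 ± 6.77 CPM (counts scaled to library size) in Zfhx3-CKO LGE and 123 ± 19.3 CPM in control LGE (SD, n = 3 each), counted over the whole gene and not its deleted part alone. A two-sided exact permutation test returned p = 0.1, the lowest value 3 against 3 libraries can give. In edgeR's quasi-likelihood test the adjusted p was 0.091, which missed the threshold of 0.05, and it passed with no low-count filter (0.0308) and without control library 3 (0.0259). Xist, which is transcribed from the inactive X, had 55947 to 59631 counts in the Zfhx3-CKO libraries and 5 to 9 in the control libraries, and the Y-linked Ddx3y had 0 to 1 counts in the Zfhx3-CKO libraries and 1234 to 1482 in the control libraries. The split by sex thus coincides with the split by genotype, and they cannot be told apart in any difference below. The LGE label was checked with 18 GABAergic and striatal genes. Their summed level was 4767 to 4983 CPM in Zfhx3-CKO LGE and 5463 to 5923 CPM in control LGE. In edgeR 2 of these genes rose and 8 fell, where 3.87% of all genes rose and 3.49% fell. Genes of cortical excitatory neurons, which the label does not name, summed to 276, 164 and 345 CPM in Zfhx3-CKO libraries 1, 2 and 3 and to 95.8 to 110 CPM in the control libraries. All 10 tested genes of this list had higher levels with an unadjusted p under 0.05, where 25.6% of all genes had such a p in either direction, and their median log2 fold change was 1.44. After adjustment 2 passed in edgeR, where 7.36% of all genes passed, and 3 passed in DESeq2. Those of edgeR were Lhx2 (log2 fold change 0.85, adjusted p 0.0139, edgeR) and Bhlhe22 (2.92, adjusted p 0.0401). Neither passed when Zfhx3-CKO library 1, control library 1 or control library 2 was left out, nor Bhlhe22 when control library 3 was (adjusted p up to 0.0793 for Lhx2 and 0.147 for Bhlhe22). In these bulk samples, fewer cells of a type and less RNA per cell cannot be told apart.

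Class I molecules present peptides on the cell surface. A heavy chain pairs with B2m, and the transporter formed by Tap1 and Tap2 carries peptides into the endoplasmic reticulum, where the complex is loaded. H2-K1 and H2-D1 encode classical heavy chains, and H2-T22, H2-T23 and H2-T24 lie among the nonclassical genes of the T region. H2-T23 encodes the heavy chain of Qa-1, a ligand of an inhibitory receptor of natural killer cells, and the H2-T22 product is recognised by some gamma delta T cells. Class II molecules present peptides taken up from outside, and the H2-DM chaperone, made of an alpha chain (H2-DMa) and a beta chain (H2-DMb1 or H2-DMb2), helps to load them. In the brain class I genes are expressed at low levels by neurons, where they have been linked to synapse refinement, and by microglia and endothelial cells.

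Class I promoters carry a kappaB site, an interferon-stimulated response element (ISRE) and a CCAAT box. The windows of 3 class I genes and of H2-DMb2 are printed to show what lies upstream of genes that were higher (H2-T23 and H2-T22), lower (H2-DMb2) or overlapping (H2-D1) in the Zfhx3-CKO libraries. Each holds 250 bases before and 50 after the start site, 5′ to 3′ on the gene's strand, from RefSeq (GRCm38.p6), and 8 of the 10 genes had such a window. The regions are chr17:36032652-36032951 (minus strand) for H2-T23, chr17:36042693-36042992 (minus strand) for H2-T22, chr17:35262844-35263143 (plus strand) for H2-D1 and chr17:34144999-34145298 (plus strand) for H2-DMb2. Capitals mark matches, on either strand, to the ISRE (2 copies of GAAA with any 2 bases between), to CCAAT and to the kappaB site (GGGGA and TCCCC with any 1 base between); no marked matches overlap.
H2-T23: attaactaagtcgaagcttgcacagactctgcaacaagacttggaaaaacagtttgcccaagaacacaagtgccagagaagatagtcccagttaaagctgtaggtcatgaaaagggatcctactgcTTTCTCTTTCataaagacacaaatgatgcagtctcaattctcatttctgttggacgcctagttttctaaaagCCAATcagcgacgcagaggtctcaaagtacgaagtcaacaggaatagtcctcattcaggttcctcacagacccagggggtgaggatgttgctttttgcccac
H2-T22: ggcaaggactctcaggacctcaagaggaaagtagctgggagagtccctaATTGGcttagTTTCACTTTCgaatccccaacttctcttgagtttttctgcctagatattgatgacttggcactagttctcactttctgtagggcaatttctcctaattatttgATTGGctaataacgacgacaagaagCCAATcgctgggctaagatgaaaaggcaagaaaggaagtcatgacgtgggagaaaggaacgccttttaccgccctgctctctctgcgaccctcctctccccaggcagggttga
H2-D1: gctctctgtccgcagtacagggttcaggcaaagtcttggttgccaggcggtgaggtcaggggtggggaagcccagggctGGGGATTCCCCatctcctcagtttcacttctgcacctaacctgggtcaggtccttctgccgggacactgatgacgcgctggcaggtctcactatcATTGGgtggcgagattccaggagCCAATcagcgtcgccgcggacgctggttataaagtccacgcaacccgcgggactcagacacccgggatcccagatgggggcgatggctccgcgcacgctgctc
H2-DMb2: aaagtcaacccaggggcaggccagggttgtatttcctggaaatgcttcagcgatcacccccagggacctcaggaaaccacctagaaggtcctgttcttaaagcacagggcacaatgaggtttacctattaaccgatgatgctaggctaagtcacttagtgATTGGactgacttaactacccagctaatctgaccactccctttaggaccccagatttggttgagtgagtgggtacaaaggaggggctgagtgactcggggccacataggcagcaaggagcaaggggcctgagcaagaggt
The H2-T23 and H2-T22 windows each held the ISRE letters, which 3.44% of all 32851 promoter windows held, and neither held the kappaB letters. The H2-D1 window, like both windows of H2-K1, held the kappaB letters, which 16 of the 32851 windows (0.0487%) held, and no ISRE as spelled here. The B2m window held the ISRE letters. A CCAAT box, found in 37.4% of all windows, was present in all 4 printed windows. H2-D1 had 2 copies, H2-T22 had 3, and H2-T23 and H2-DMb2 had 1 each.

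The comparison of Zfhx3-CKO with control asks how loss of Zfhx3 changes expression in the LGE, but sex splits the libraries in the same way. Whether the groups also differed in MHC haplotype, the variants carried together in this region, was not tested. Loss of Zfhx3, sex and haplotype cannot be told apart here. All 10 genes passed the low-count filter, and 4 were called by edgeR at an adjusted p under 0.05. H2-T22, H2-T23 and H2-T24 were higher and H2-DMb2 was lower. Over all 16551 genes tested, 7.36% were called, 3.87% higher and 3.49% lower; since the genes were picked on this comparison, nothing is read from their share. The authors' deposited table marks 122 of 29659 genes as significant, these 4 among them, which is no separate evidence since the genes were picked on this comparison. H2-T23 and H2-T24 reached the filter's level only in the Zfhx3-CKO libraries, and H2-DMb2 only in the control libraries. The median log2 fold change was 0.20 over the 10 genes and 0.00 over all genes tested.

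**Figure D1:**
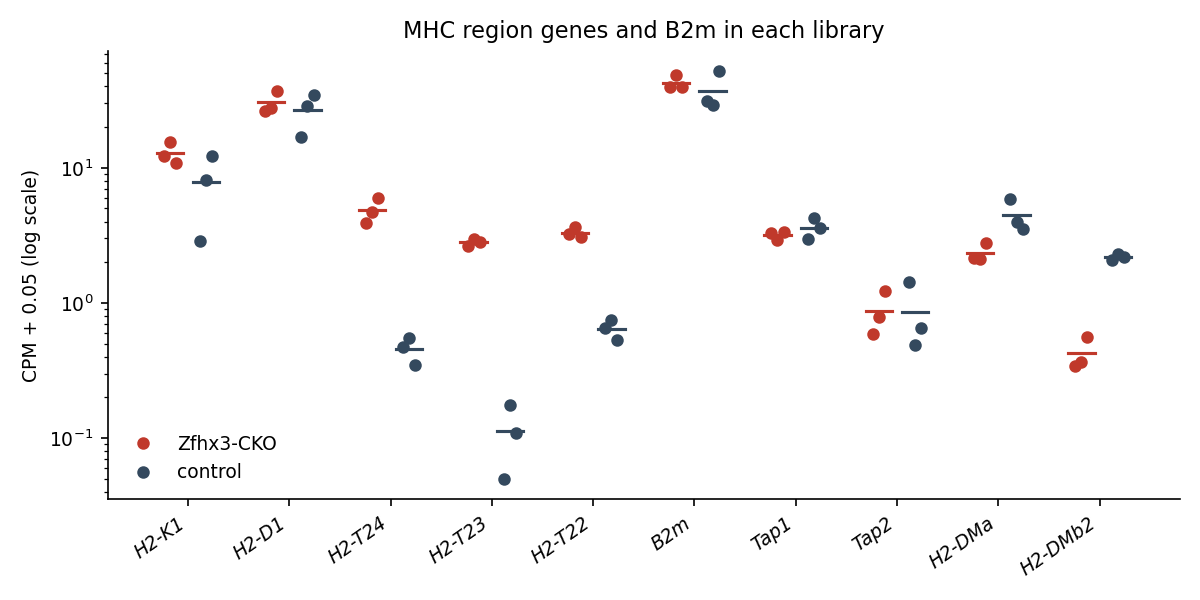
Level of each of the 10 genes in every library, in CPM plus 0.05 on a log axis, for Zfhx3-CKO (red, left of each pair) and control (dark blue, right). Points are libraries and bars are group means; the groups lie apart for H2-T24, H2-T23, H2-T22, H2-DMa and H2-DMb2 and overlap for the other 5 genes.

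The 3 genes of the T region had 53 to 115 counts per library in Zfhx3-CKO LGE and 0 to 11 in control LGE. H2-T24 (ENSMUSG00000053835, chromosome 17, 36005695 to 36020560, minus strand, GRCm38), a nonclassical heavy chain gene, had 78, 88 and 115 counts in Zfhx3-CKO libraries 1, 2 and 3 and 7, 8 and 5 in control libraries 1, 2 and 3. The means were 4.79 ± 1.04 CPM in Zfhx3-CKO LGE and 0.407 ± 0.103 CPM in control LGE (SD, n = 3 each), and the fitted log2 fold change was 3.54 (SE 0.31). The lowest Zfhx3-CKO library lay far above the highest control library.

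H2-T23 (ENSMUSG00000067212, 36029773 to 36032855, minus strand) had 53, 55 and 54 counts in the Zfhx3-CKO libraries and 0, 2 and 1 in the control libraries. The 3 Zfhx3-CKO libraries were almost equal, and control library 1 had no count, which allows up to 3 counts or 0.179 CPM there. With 162 counts in all Zfhx3-CKO libraries against 3 in all control libraries, the ratio per total count was 45.1 with an exact (Clopper-Pearson) 95% interval of 15.2 to 221, which covers counting error only. The fitted log2 fold change of 5.35 (SE 0.49) depends on the prior count used for so few reads. DESeq2 gave 5.51 with a larger SE of 0.92, so the smaller SE should not be read as the precision of this value.

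H2-T22 (ENSMUSG00000056116, 36037128 to 36042747, minus strand) had 65, 68 and 59 counts in the Zfhx3-CKO libraries and 10, 11 and 8 in the control libraries. The means were 3.27 ± 0.298 CPM in Zfhx3-CKO LGE and 0.590 ± 0.108 CPM in control LGE (SD, n = 3 each), with a fitted log2 fold change of 2.46 (SE 0.26). The groups did not overlap. The 3 genes lie on the same strand within 37.05 kb.

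Both class II chaperone genes had lower levels in every Zfhx3-CKO library than in any control library, and 1 of them, H2-DMb2, was called. H2-DMb2 (ENSMUSG00000037548, 34143307 to 34151553, plus strand) had 6, 6 and 10 counts in the Zfhx3-CKO libraries and 34, 36 and 36 in the control libraries. The means were 0.375 ± 0.120 CPM in Zfhx3-CKO LGE and 2.15 ± 0.119 CPM in control LGE (SD, n = 3 each), with a fitted log2 fold change of -2.50 (SE 0.31), and the control libraries were tightly grouped. H2-DMa (ENSMUSG00000037649, 34135182 to 34139101, plus strand) had 43, 39 and 53 counts in the Zfhx3-CKO libraries and 98, 62 and 58 in the control libraries. The groups did not overlap, and the log2 fold change was -0.94 (SE 0.26). H2-DMa was not called, but it was without Zfhx3-CKO library 3 (log2 fold change -1.08), with DESeq2 (-0.93) and with no low-count filter (-0.93). H2-DMa and H2-DMb2 lie within 16.37 kb of each other, 1854 kb from H2-T24.

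The classical heavy chains, B2m and the transporter genes did not separate the groups. H2-K1 (ENSMUSG00000061232, 33996017 to 34000333, minus strand) had 12.2, 15.6 and 10.8 CPM in Zfhx3-CKO libraries 1, 2 and 3 and 2.81, 8.14 and 12.3 CPM in control libraries 1, 2 and 3. Its log2 fold change was 0.73 (SE 0.42), and the control libraries differed 4.37-fold among themselves; it was 0.33 without control library 1 and 1.23 without control library 3. H2-D1 (ENSMUSG00000073411, 35262730 to 35267499, plus strand) had 26.5, 27.8 and 37.0 CPM in the Zfhx3-CKO libraries and 16.9, 28.4 and 34.2 CPM in the control libraries, a log2 fold change of 0.20 (SE 0.24) that turned to -0.04 without control library 1 and was 0.03 without Zfhx3-CKO library 3 and 0.42 without control library 3. Control library 1 was the lowest of the 6 libraries for both heavy chains.

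B2m (ENSMUSG00000060802, chromosome 2, 122147686 to 122153083, plus strand) had 39.6, 48.3 and 39.8 CPM in the Zfhx3-CKO libraries and 30.9, 28.9 and 51.9 CPM in the control libraries, a log2 fold change of 0.19 (SE 0.21). Without single libraries the value was 0.10 (Zfhx3-CKO library 2), 0.08 (control library 1), 0.05 (control library 2) and 0.51 (control library 3). Control library 3 had the highest and control library 2 the lowest B2m level. Tap1 (ENSMUSG00000037321, 34187553 to 34197225, plus strand) had 66, 54 and 64 counts in the Zfhx3-CKO libraries and 49, 67 and 59 in the control libraries, with a log2 fold change of -0.19 (SE 0.21). Tap2 (ENSMUSG00000024339, 34203527 to 34216321, plus strand) had 11, 14 and 23 counts in the Zfhx3-CKO libraries and 23, 7 and 10 in the control libraries. Its log2 fold change was 0.02 (SE 0.49) and turned negative, as far as -0.34, without Zfhx3-CKO library 3, control library 2 or control library 3, and counts this low set a wide limit on any difference.

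Across all 10 genes, 3 had every Zfhx3-CKO library above every control library, 2 had them below and 5 overlapped. Of all genes tested, 15.5% were above and 15.9% below in this sense, 31.4% in all. Nothing is read from the share of the 10 genes, since they were picked on this comparison. The spread within groups was wider in the control group for several genes: the SD of log2 CPM over the Zfhx3-CKO and the control libraries was 0.27 (Zfhx3-CKO) and 1.08 (control) for H2-K1. For H2-D1 it was 0.26 (Zfhx3-CKO) and 0.53 (control), and for B2m 0.16 (Zfhx3-CKO) and 0.46 (control). The medians over all genes tested were 0.16 in the Zfhx3-CKO group and 0.12 in the control group.

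The order of levels, compared as FPKM, the authors' values scaled to gene length and sequencing depth, changed below the most abundant genes. B2m led in both groups, at 49.4 ± 5.70 FPKM in the Zfhx3-CKO libraries and 43.3 ± 15.1 FPKM in the control libraries (SD, n = 3 each), and H2-D1 followed at 10.31 to 14.22 FPKM in the Zfhx3-CKO libraries and 6.55 to 13.37 FPKM in the control libraries. H2-K1 came next in both groups. In the Zfhx3-CKO libraries the order went on with H2-T24 (2.19 FPKM), H2-DMa, H2-T22, H2-T23, Tap1, H2-DMb2 and Tap2 (0.216 FPKM), where the ranges of H2-T22 and H2-T23 and those of H2-DMb2 and Tap2 overlapped. In the control libraries it went on with H2-DMa (2.69 FPKM), H2-DMb2, Tap1, Tap2, H2-T24, H2-T22 and H2-T23 (0.0214 FPKM). There the ranges of H2-K1 and H2-DMa, of Tap2 and H2-T24 and of H2-T24 and H2-T22 overlapped. H2-T24 thus came directly after H2-K1 in Zfhx3-CKO LGE and after Tap2 in control LGE.

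Many H2 genes are near copies of each other, so reads can be assigned to the wrong copy. To show how much sequence is shared, every distinct stretch of 50 bases in a gene's transcripts (GENCODE vM21, GRCm38) was taken. Each was looked for, on either strand, in the transcripts of all other genes. This gives shared sequence, from copies or from overlapping genes, and not how many reads were assigned to the wrong gene. H2-T22 shared 53.5% of its stretches with other genes, 31.2% with H2-T10 alone, and H2-DMb2 shared 25.9%, 21.2% with H2-DMb1. H2-T23 shared 14.5%, H2-D1 12.8%, Tap2 11.6%, H2-K1 9.63% and H2-DMa 8.43%, the share of H2-DMa being all with Brd2. Where transcripts of different genes overlap, reads cannot be told apart if counting ignored strand, which the sources used here do not give. H2-T24 shared 3.17%, Tap1 3.33% and B2m none. The values of H2-T22 and H2-DMb2 are therefore uncertain as values of single genes, while most of the H2-T24 sequence was its own.

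**Figure D2:**
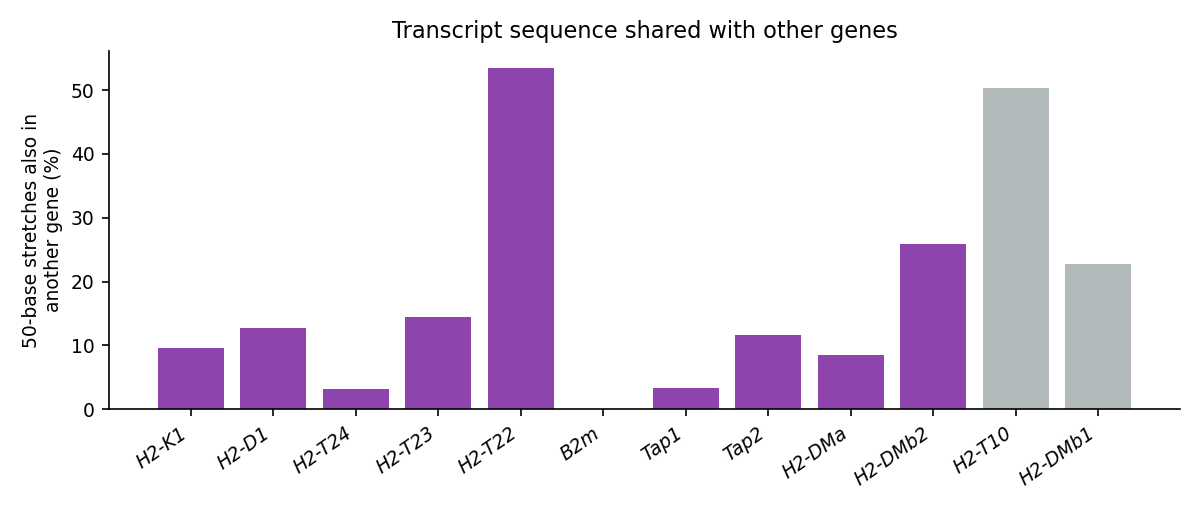
Share of each gene's distinct 50-base transcript stretches that also occur in a transcript of another gene, in percent, for the 10 genes (purple) and the copies H2-T10 and H2-DMb1 (grey). H2-T22 and H2-T10 stand highest at 53.5% and 50.4%, and B2m is at 0.

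The closest copies of H2-T22 and H2-DMb2 had mean levels that differed in the opposite direction. H2-T10, annotated as a polymorphic pseudogene 73.13 kb from H2-T22, had 22, 24 and 22 counts in the Zfhx3-CKO libraries and 31, 36 and 38 in the control libraries (log2 fold change -0.88, adjusted p 0.0604, edgeR), and the groups did not overlap. H2-T22 took 74.7%, 73.9% and 72.8% of the counts of the pair in Zfhx3-CKO libraries 1, 2 and 3 and 24.4%, 23.4% and 17.4% in control libraries 1, 2 and 3. The widest exact 95% interval was 61.8% to 82.1% in a Zfhx3-CKO library and 12.4% to 40.3% in a control library. The summed pair had 4.26, 4.87 and 4.15 CPM in the Zfhx3-CKO libraries and 2.45, 2.96 and 2.75 CPM in the control libraries, a log2 fold change of 0.70 (SE 0.19). The difference of the pair was thus smaller than that of H2-T22 alone, and the pair was not called. H2-T22 also shared 26.5% of its stretches with A930015D03Rik, and H2-T10 shared 24.9% with BC023719. The sum left out both of these genes, so it does not cover all reads that could have been assigned elsewhere.

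H2-DMb1, the other beta chain gene of H2-DM, had 12, 6 and 12 counts in the Zfhx3-CKO libraries and 1, 4 and 6 in the control libraries, too few for the filter. H2-DMb2 took 33.3%, 50% and 45.5% of the pair's counts in the Zfhx3-CKO libraries and 97.1%, 90.0% and 85.7% in the control libraries. The summed pair had 18, 12 and 22 counts in the Zfhx3-CKO libraries and 35, 40 and 42 in the control libraries. The log2 fold change of the pair was -1.42 (SE 0.28), and the pair was called. Nothing is read from this call, since H2-DMb2 was picked on this comparison and made up most of the pair's control counts.

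**Figure D3:**
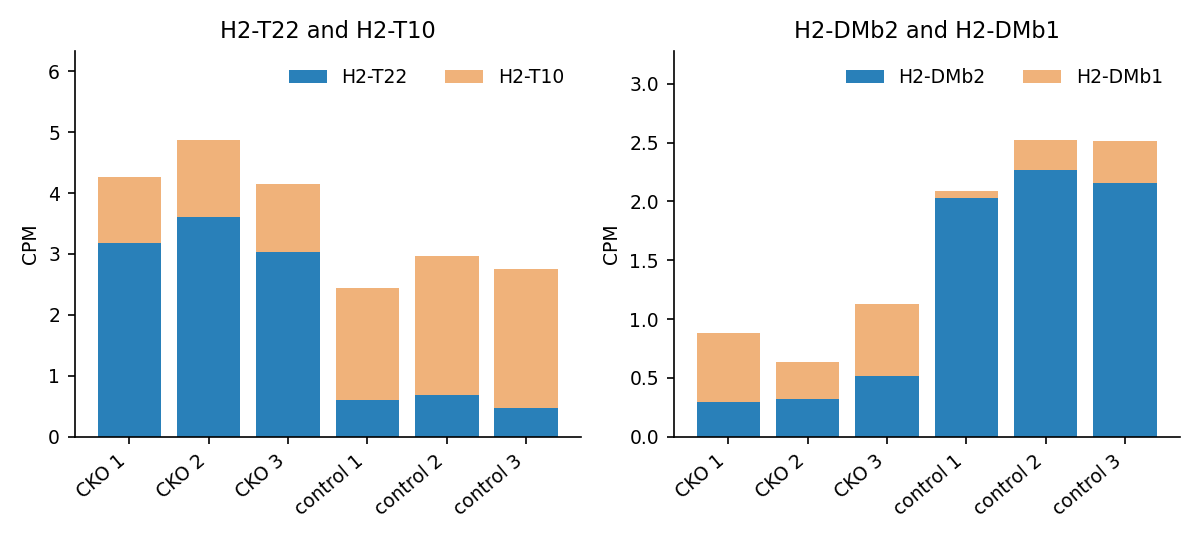
Stacked CPM of H2-T22 with H2-T10 (left panel) and of H2-DMb2 with H2-DMb1 (right panel) in each library, Zfhx3-CKO (CKO) to the left of control. The first gene of each pair is blue and its copy orange; H2-T22 makes up most of its bar in the Zfhx3-CKO libraries and at most 24.4% of it in the control libraries, and H2-DMb2 the larger part of its bar in the control libraries.

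The remaining H2 genes were mostly at or near 0. Of 38 H2 genes on chromosome 17 in the table, 12 were tested and 4 were called, all of them among the 10 genes above. Over all genes tested 7.36% were called, and since the 4 genes were picked on this comparison, nothing is read from their share. Of 18 other class I genes found, 5 were tested and none passed in edgeR or DESeq2. An unadjusted p under 0.05 (edgeR) was found for 2 with higher and 1 with lower levels, where 25.6% of all genes had such a p. H2-Q4 averaged 3.05 ± 0.574 CPM in Zfhx3-CKO LGE and 1.83 ± 0.265 CPM in control LGE (SD, n = 3 each; log2 fold change 0.74, adjusted p 0.0994, edgeR), and 36.4% of its 50-base stretches occur in other genes. H2-M5 averaged 14.1 CPM in Zfhx3-CKO LGE and 15.9 CPM in control LGE, with an adjusted p of 0.441. The other 13 class I genes had at most 22 counts over the Zfhx3-CKO libraries and 12 over the control libraries.

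Most class II genes other than H2-DMa and H2-DMb2 were barely detected in either group. Of 9 other class II genes, 1 passed the filter: Ciita, the class II transactivator (log2 fold change -0.15, adjusted p 0.813, edgeR), and neither edgeR at an unadjusted p under 0.05 nor DESeq2 called any. Over 3 libraries, the other 8 had 0 to 30 counts in the Zfhx3-CKO group and 0 to 14 in the control group. The invariant chain gene Cd74, which accompanies class II molecules, had 10 counts in the Zfhx3-CKO group and 5 in the control group, and H2-Ab1, a class II beta chain gene, had 12 in the Zfhx3-CKO group and 2 in the control group.

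A list of antigen processing genes held genes of the class I and class II pathways. Of its 20 tested genes, 1 rose, none fell and 19 did not pass, where 3.87% of all genes were called higher and 3.49% lower. Rfxap, a subunit of the RFX complex that binds class I and class II promoters, rose to 33.0 ± 1.95 CPM in the Zfhx3-CKO libraries, against 17.9 ± 2.40 CPM in the control libraries (SD, n = 3 each; log2 fold change 0.88, SE 0.12, adjusted p 0.00487, edgeR). For its partner Rfxank the adjusted p was 0.0699 (log2 fold change 0.45), and for Rfx5, the DNA-binding subunit, it was 0.658 (log2 fold change 0.08). The class I transactivator gene Nlrc5 averaged 0.868 CPM in Zfhx3-CKO LGE and 0.731 CPM in control LGE (adjusted p 0.715). Tapbp, which encodes tapasin, the bridge between the transporter and the heavy chain, averaged 18.7 CPM in Zfhx3-CKO LGE and 21.4 CPM in control LGE (adjusted p 0.322). Over the tested genes of the list, the log2 fold changes had a median of 0.10.

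Interferons induce class I genes. Of 34 tested interferon pathway genes, none passed in edgeR or DESeq2; at an unadjusted p under 0.05, 1 was higher and 4 were lower, where 25.6% of all genes had such a p. Adjusted p-values were 0.0651 for Gbp7, a guanylate-binding protein gene (log2 fold change -0.81), 0.0741 for Ifit2 (-0.30) and 0.127 for Bst2 (0.85). The list summed to 624 to 640.0 CPM in the Zfhx3-CKO libraries and 654 to 668 CPM in the control libraries. Among the receptors and partners of class I molecules, 1 of 12 was tested, Cd247, the CD3 zeta chain (log2 fold change 0.31, adjusted p 0.567). None of 8 tested class I-like genes outside the region was called, in edgeR or DESeq2, or had an unadjusted p under 0.05.

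Microglia and vessel cells also make class I molecules, and their markers were measured beside these genes. The microglia and macrophage list (20 genes, none at 0 in every library) summed to 447 to 650.3 CPM in the Zfhx3-CKO libraries and 560.2 to 837 CPM in the control libraries. Of its 18 tested genes, 2 fell and none rose in edgeR, where 3.49% of all genes fell and 3.87% rose. DESeq2 called 2 lower and 1 higher. Those that fell in edgeR were P2ry12, a microglial receptor gene (log2 fold change -1.80, adjusted p 0.00407), and Ptprc, the leukocyte surface gene CD45 (log2 fold change -0.68, adjusted p 0.0356), whose call was lost without any 1 library other than Zfhx3-CKO library 3 (adjusted p up to 0.148). For Cx3cr1, another microglial receptor gene, the adjusted p was 0.0877 in edgeR (log2 fold change 0.61), while DESeq2 called it higher (0.0135). It also passed in edgeR when no genes were filtered (0.00944) and when Zfhx3-CKO library 3 (0.00132), or libraries 1 and 3 of that group (0.00381), were left out. The endothelial and pericyte list (21 genes) summed to 453 to 541 CPM in the Zfhx3-CKO libraries and 435 to 449 CPM in the control libraries. None of its 20 tested genes passed in edgeR, though DESeq2 called Pecam1. With higher levels, 4 genes had an unadjusted p under 0.05 (edgeR), where 25.6% of all genes had such a p in either direction. Control library 3 had the highest microglial sum (837 CPM) and the highest H2-K1, H2-D1 and B2m of the control group. Control library 2 had the lowest microglial sum of that group and the lowest B2m, but more H2-K1 and H2-D1 than control library 1. In the Zfhx3-CKO group, library 2 had the highest microglial sum, H2-K1 and B2m. Zfhx3-CKO library 3 had the lowest microglial sum of all libraries (447 CPM) and the highest H2-D1 (37.0 CPM). Meningeal fibroblast genes summed to 70.4, 141 and 70.4 CPM in Zfhx3-CKO libraries 1, 2 and 3 and 65.8 to 80.9 CPM in the control libraries. None of 6 tested genes was called by either tool. At an unadjusted p under 0.05 (edgeR), 3 were higher, against the same 25.6% of all genes in either direction. Other antigen-presenting and immune cell genes summed to 7.95 to 11.1 CPM in Zfhx3-CKO LGE and 7.38 to 12.5 CPM in control LGE, with neither of 2 tested genes called or at an unadjusted p under 0.05. The part of these cell types, and of the cortical neurons, in the differences of the 10 genes was not tested. With Zfhx3-CKO library 2, the lowest of its group in cortical neuron genes but still above every control library, as the only Zfhx3-CKO library and assumed to vary like the control libraries, the log2 fold changes were 3.50 for H2-T24, 5.42 for H2-T23, 2.60 for H2-T22 and -2.73 for H2-DMb2, values of 1 library from the comparison that picked these genes.

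**Figure D4:**
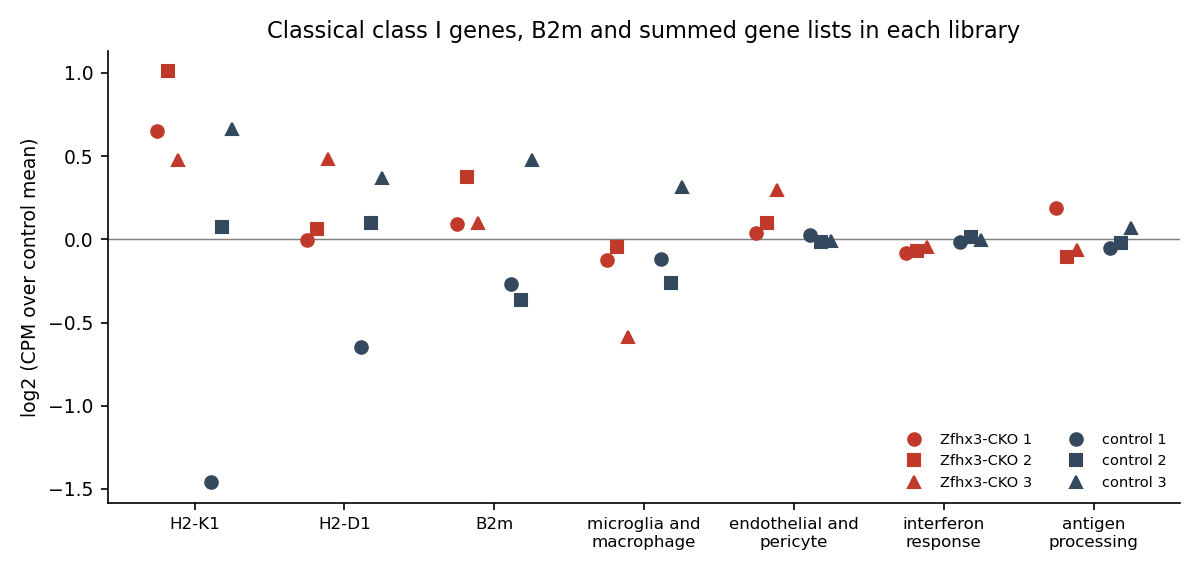
Level in each library relative to the control mean, as log2 of the CPM ratio, for H2-K1, H2-D1, B2m and the summed CPM of 4 gene lists, with Zfhx3-CKO in red to the left of control in dark blue. Circles, squares and triangles are libraries 1, 2 and 3 of each group. Control library 1 lies lowest for H2-K1 and H2-D1, and control library 3 highest for B2m and the microglial list. Zfhx3-CKO library 3 lies lowest for the microglial list and highest for H2-D1, and the interferon list varies little.

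The neighbours of the H2 genes were examined by position. The interval between the first and the last H2 gene on chromosome 17 (33974831 to 37483552, GRCm38) held 203 genes of the table, of which 103 were tested, 8 were called higher and 4 lower (11.7% called). Within 2 Mb on both sides, 4 of 54 tested genes were called higher and 1 lower (9.26%), and over all genes 7.36% were called. The 4 genes called among the 10 described here are part of the interval's 12, so its share is not independent of how they were picked. Of the 12, 6 had a log2 fold change over 1 in size: H2-T22, H2-T23, H2-T24, H2-DMb2, the complement gene C4b and a predicted pseudogene; over all genes tested, 2.15% were called with a change of that size.

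C4b, which encodes complement component 4, fell to 0.208 ± 0.161 CPM in the Zfhx3-CKO libraries, against 1.49 ± 0.688 CPM in the control libraries (SD, n = 3 each; log2 fold change -2.82, adjusted p 0.0298, edgeR). Its call was lost without Zfhx3-CKO library 1, control library 1 or control library 3 (highest adjusted p 0.133). Zbtb12, a zinc-finger gene, rose to 110 ± 8.52 CPM in the Zfhx3-CKO libraries, against 61.1 ± 0.570 CPM in the control libraries (log2 fold change 0.85, adjusted p 0.000624). The histone methyltransferase gene Ehmt2 (log2 fold change 0.40, adjusted p 0.022), Cchcr1 (0.59, adjusted p 0.00966), the valyl-tRNA synthetase gene Vars2 (0.41, adjusted p 0.0461) and the helicase gene Dhx16 (0.36, adjusted p 0.0313) rose, and Atat1, a tubulin acetyltransferase gene, fell (-0.26, adjusted p 0.049). The calls of these last 5 genes were each lost without Zfhx3-CKO library 1 and without control library 1 or 2, those of Vars2 and Atat1 also without control library 3, that of Vars2 without Zfhx3-CKO library 3 and that of Atat1 without Zfhx3-CKO library 2 (highest adjusted p 0.203).

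Rps18, a ribosomal protein gene that ends 18.83 kb before the first H2 gene, was singled out after its values were seen. It had 2580, 2471 and 2353 counts in the Zfhx3-CKO libraries and 377, 359 and 387 in the control libraries (log2 fold change 2.47, SE 0.07, adjusted p 5.04e-07, edgeR). The libraries within each group were close together and the groups far apart. Rps18 shared 23.7% of its 50-base stretches with other genes, so part of its reads could have been assigned elsewhere.

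**Figure D5:**
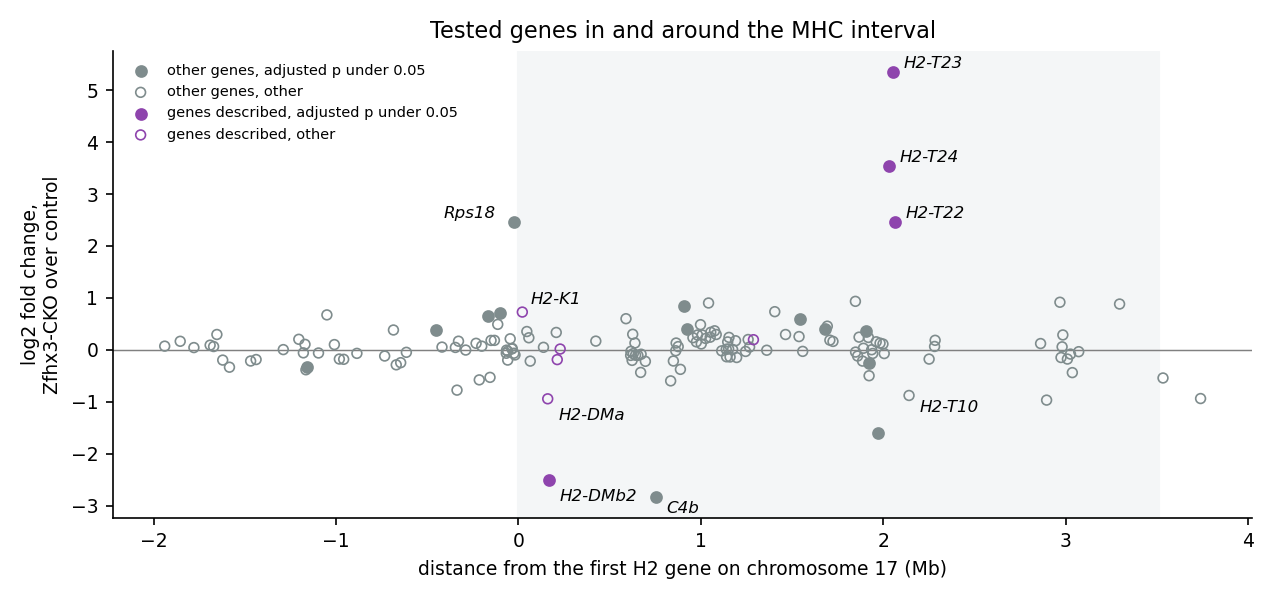
Log2 fold change of Zfhx3-CKO over control (edgeR) for each tested gene by distance from the first H2 gene on chromosome 17, in Mb; the grey band is the interval between the first and last H2 genes. Filled points have an adjusted p under 0.05, and the genes described here are purple; H2-T22, H2-T23 and H2-T24 stand together at the top while H2-DMb2 and C4b lie lowest, with most genes near 0 and Rps18 just before the interval.

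The genes whose log2 CPM followed each picked gene most closely over the 6 libraries, among 15162 genes of at least 1 CPM on average, were listed as a description. They were AC163633.1, Ttc7 and Tpm3 for H2-T22 (Pearson r 0.9967, 0.9956 and 0.9956), Abhd8, Fgd3 and Nrgn for H2-T23 (0.9971, 0.9969 and 0.9956), Xpa, S100a10 and AI506816 for H2-T24 (0.9987, 0.9983 and 0.9974) and Zfp560, Rpl7a-ps5 and Ufd1 for H2-DMb2 (0.9978, 0.9971 and 0.9969). The 6 points of each share the split into 2 groups, and of these 12 genes only Ttc7 and Rpl7a-ps5 lie on chromosome 17. Their differences between the group means of log2 CPM (Zfhx3-CKO minus control) were as small as 0.39 for Abhd8 and -0.24 for Ufd1.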

How the data were processed

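Per the labels' protocols, each library used 1 ug of RNA and an Illumina TruSeq kit. Named in the submitters' processing notes are edgeR, StringTie, HISAT2 and bcl2fastq 2.17.1.14, as well as the builds mm10 and GRCm38.p4, with no role given for any. The annotation release, strand setting and treatment of reads with several matches are not given in the sources used here. The deposited counts are whole numbers per gene with no normalisation, per the file headers and the values. The deposited FPKM values, so named per the file headers, are scaled to gene length and depth. The authors' log2 fold changes and adjusted p-values, also deposited, were used only to count the genes the authors marked.

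Columns with short names in the full table (29659 genes) held the same counts and FPKM (relative difference under 1e-09) as the columns with sample titles in the shorter table for all 3726 genes of the latter. Library pairs within groups differed by more than sampling noise (chi-square per gene 3.35 to 29.3, about 1 under sampling noise alone), so no library appeared to be deposited more than once; this does not show that they came from separate animals. The test was edgeR's quasi-likelihood test (edgeR 4.0.16, R 4.3.3) with TMM factors, filterByExpr at a minimum count of 10 (16551 genes kept), group as the only term and Benjamini-Hochberg adjustment over all tested genes at 0.05. CPM use the TMM-scaled totals. The SE given with edgeR values was worked back as the size of the log2 fold change over the square root of the test's F value. DESeq2's own SE was larger for the 4 picked genes: 0.42 for H2-T22, 0.92 for H2-T23, 0.45 for H2-T24 and 0.51 for H2-DMb2. For H2-D1 (0.23) and B2m (0.20) it was slightly smaller. No p-value is given for the 10 genes, since the comparison served to choose them. The 10 genes and all 14 gene lists were chosen with earlier results of these data known. Of 230 list genes, 219 were found. Named were the 10 genes and Zfhx3. From most lists the called genes (at most 4) were named, or otherwise genes among the 3 of lowest p where described. No called gene of the LGE and GABAergic list was named, and only Xist and Ddx3y were named for sex. Also named were every called gene of the interval with a symbol, H2 genes of at least 1 CPM, and the genes most like the 4 picked ones. Rfx5, Nlrc5, Tapbp, Cd74, H2-Ab1, Cx3cr1 and Rps18 were added after their values were seen. Alternatives were a replicate block, DESeq2 1.42.0, RLE factors, library totals, no filter, a filter of 5 CPM in 3 libraries, each library left out, Zfhx3-CKO libraries 1 and 3 left out, and limma-trend (limma 3.58.1) on log2(FPKM + 1) and log2(FPKM + 0.1) where 3 libraries reached 1 FPKM. Summing near-identical copies was added after the data were seen.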

Additional observations from a re-analysis of the deposited data

How the results depend on the processing

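H2-T23, H2-T24 and H2-DMb2 kept their direction in every fit that tested them, and their call in each such fit with more than 1 library per group. The log2 fold changes were 4.81 to 6.24 for H2-T23, 1.42 to 3.72 for H2-T24 and -2.79 to -0.89 for H2-DMb2. All fits reuse the libraries that picked these genes, so they are a description and support nothing. At the main filter, H2-T23 and H2-T24 passed only through the Zfhx3-CKO libraries and H2-DMb2 only through the control libraries. H2-T22 lost its call only when summed with H2-T10 (log2 fold change 0.70). The strict filter tested 3 of the 10 genes, H2-D1, H2-K1 and B2m, and called 0 higher and 0 lower. It left out the genes called in the main fit, so it could not call them. Both FPKM fits tested 6 and called 1 higher (H2-T24) and 1 lower (H2-DMb2). DESeq2, no filter and the fit without Zfhx3-CKO library 3 called 2 lower, where H2-DMa passed (-0.93, -0.93 and -1.08; -1.09 to -0.68 without single libraries). Tap2 turned to -0.12 without Zfhx3-CKO libraries 1 and 3, and between -0.34 and 0.65 with single libraries left out. H2-D1 ranged from -0.04 to 0.42 in those fits. Over all genes, 640 were higher and 578 lower; the replicate block gave 176 and 136, DESeq2 1011 higher, no filter 1075 higher, and fits without 1 library 156 to 1082 higher and 131 to 1014 lower (fewest without control library 2 and control library 1, most without Zfhx3-CKO library 3). The strict filter called 574 higher and 520 lower of 12026 genes. Of 13896 genes, the FPKM fits called 463 higher and 473 lower (FPKM + 1) and 433 and 447 (FPKM + 0.1). In the interval the counts (8 higher and 4 lower) became 4 and 1 with the block, 5 and 1 with the strict filter and 5 higher with both FPKM fits. Without single libraries they were 4 to 13 and 1 to 6. Nothing particular to the interval is read from these counts, since the counts over all genes changed too. Of antigen processing genes, 1 was lower with no filter and without Zfhx3-CKO libraries 1 and 3, and 1 or 2 were higher without single libraries; 1 interferon gene was lower without Zfhx3-CKO libraries 1 and 3. Libraries with the same replicate number did not deviate together (correlation of deviations -0.03, -0.08 and -0.25), and the block changed no call of the 10 genes. The cause of these changes was not tested. Counts under about 10 per library limit Tap2, H2-DMb2 and the control values of the T region genes.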
